A study of Mus musculus with 12 samples.

Results

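The genes described here are the 50 rows of the expression table whose symbol begins with Psma, Psmb, Psmc, Psmd, Psme, Psmf or Psmg and a number, out of 20788 rows. The rule uses the name alone and no measured value, although it was set with earlier results of these data known. Of these, 49 encode proteasome subunits, activators, an inhibitor or assembly chaperones. The other row, Psmc3ip, encodes a recombination factor of meiosis that shares only the name. The low-count filter kept 48 of the 50, and the ones not tested were Psmb11 and Psme2b.

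The proteasome is the main protein-degrading complex of the cell. Its 20S core is a barrel of alpha and beta rings, and the catalytic sites lie in the beta subunits Psmb5 (chymotrypsin-like), Psmb6 (caspase-like) and Psmb7 (trypsin-like). Interferon gamma induces Psmb8, Psmb9 and Psmb10, which take the places of these subunits in the immunoproteasome and alter the peptides offered on MHC class I. Germ cells carry a further form, the spermatoproteasome, in which Psma8 takes the place of the alpha subunit Psma7, and the activator Psme4 (PA200) acts in the removal of histones from spermatids.

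RNA was sequenced from whole testes of F1 mice in 4 groups of 3 libraries. The 3NC group is the negative control of the lentiviral vector LV3. The knockdown group had LV3 with a mixture of hairpins against lncRNA5251, an RNA without a protein product. The 5NC group is the negative control of the vector LV5, and the overexpression group had LV5 with lncRNA5251. The strain was labelled as IRC mouse, which the study gives as ICR, and every group, controls included, descends from a virus treatment. The study describes the F1 mice as adult offspring of males whose testes had been injected, whereas the design text speaks of transfected F1 testes. Whether each library is a mouse of its own is not in the labels, so the p-values below measure the spread between libraries, which may be technical. No row was named for lncRNA5251, so its level could not be checked against the group labels.

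Depth was 12719699 to 15771655 estimated reads per library, of which the 50 genes took 0.564% to 0.612%. Markers of the labelled tissue were present in every library, with summed levels of 1545 to 2110 CPM (read counts scaled to the size of the library) for 10 spermatocyte genes, 912 to 1362 CPM for 8 round spermatid genes and 591 to 836 CPM for 8 Sertoli cell genes. The libraries 3NC replicate 2 and knockdown replicate 1 stood apart from the rest. They held 94.8 and 71.7 CPM of Ptprc (CD45, the surface phosphatase of white blood cells), against 2.12 to 6.91 CPM in the other 10 libraries. In 5NC replicates 2 and 3 another list stood out. Their summed epididymis markers reached 314 and 137 CPM, against 4.26 to 84.9 CPM in the other libraries. The first vector also differed in this list, at 39.4 to 84.9 CPM in 3NC and 5.25 to 25.4 CPM in knockdown, with no overlap. Results that rest on 3NC replicate 2, knockdown replicate 1 or 5NC replicates 2 and 3 are given with the values of each.

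Psmb8 and Psmb9 are neighbours of the peptide transporter genes Tap1 and Tap2 in the MHC class II region. In RefSeq coordinates (GRCm38.p6), Psmb8 is at chr17:34198195-34201454 on the forward strand and Psmb9 at chr17:34182030-34187330 on the reverse strand. Psmb10 is at chr8:105935728-105938392 (reverse). Of the constitutive genes, Psmb5 is at chr14:54614120-54617995 (reverse), near the thymus gene Psmb11 at chr14:54625310-54629556, Psmb6 at chr11:70525324-70527858 (forward) and Psmb7 at chr2:38588046-38643952 (reverse). Psma7 is at chr2:180036367-180042464 (reverse). Exons of Psmb9 share bases with Tap1 on the other strand, those of Psmb7 with Nek6, those of Psme1 with Emc9, those of Psmb5 with the microRNA gene Mir686 on the same strand and those of Psmb8 with the unnamed gene model Gm20496. The counting is not stated to use strand, so reads in these stretches cannot be told apart.

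The promoters of the immune and constitutive genes are shown because the immune genes ranged widely across libraries and their constitutive counterparts narrowly. The 250 bases before the start were searched on both strands for 10 motifs in 42 of the 50 genes, those with a promoter in the RefSeq table. Psma8, Psmb7, Psmb1, Psmb2, Psmc3, Psmd3, Psmd7 and Psmg2 were not searched. The gamma-activated site TTCNNNGAA was found in Psmb8 and Psmg1, and in 7.02% of all promoters. The interferon-stimulated response element GAAANNGAAA was found in Psmb3, Psmd4 and Psmd9, and in 2.98% of all promoters. The antioxidant response element TGACNNNGC was found in 5 members, Psmb5, Psmb6, Psmc6, Psmd12 and Psmd9, and in 10.2% of all promoters. The other motifs were counted in the same windows. The GC box GGGCGG was in 22 members (32.7% of all promoters), the CCAAT box in 15 (33.8%), the RFX site GTTGCC in 7 (10.4%), the MYB site AACTGNC in 6 (10.6%) and the NRF1 site in 6 (3.74%). The cAMP response element TGACGTCA (1.55%) and the NF-kappa-B site (0.98%) were in 0 of the 42. Motifs may overlap each other. Neither interferon motif was found in these windows of Psmb9 or Psmb10, and a match or its absence is a description of the letters only. The match and up to 10 bases on each side are printed 5′ to 3′ on the gene's strand, with the motif in capitals. The Psmb8 site lies at chr17:34198088-34198116 (forward), 97 to 89 bases before the start used. It is inside the gene record of GENCODE, which starts earlier, at chr17:34197721. The Psmb5 site lies at chr14:54618024-54618052 (reverse), 47 to 39 bases before the start. The Psmb6 site lies at chr11:70525338-70525356 (forward), 9 to 1 bases before the start of the promoter table, which is later than the start of the gene record.
Psmb8: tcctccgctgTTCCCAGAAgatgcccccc
Psmb5: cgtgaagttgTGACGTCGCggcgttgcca
Psmb6: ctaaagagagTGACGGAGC

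Levels of different genes were compared per length, as FPKM (fragments per kilobase of gene, scaled to the mapped reads), a unit computed by the authors. Within the 20S core the means over 12 libraries ran from 29.1 FPKM for Psma1 to 513 FPKM for Psma6 among the alpha genes. Among the constitutive beta genes they ran from 38.6 FPKM for Psmb2 to 193 FPKM for Psmb7. The immune genes Psmb8, Psmb9 and Psmb10 had means of 12.7, 10.5 and 7.64 FPKM, and medians of 3.96, 5.21 and 4.44 FPKM. In the 19S regulatory particle, which binds and unfolds substrates, the ATPase genes ran from 33.7 FPKM for Psmc4 to 430 FPKM for Psmc3. The 14 non-ATPase genes ran from 8.55 FPKM for Psmd5 to 182 FPKM for Psmd8. Psmd5, Psmd9 and Psmd10, which serve in assembly of the regulatory particle, had the lowest medians of that class, at 8.86, 9.05 and 12.4 FPKM. Among the activators the germ cell activator Psme4 had a mean of 133 FPKM, Psme3 (PA28 gamma) 55.8 FPKM, Psme2 (PA28 beta) 32.3 FPKM and Psme1 (PA28 alpha) 26.1 FPKM. The inhibitor Psmf1 (PI31) had a mean of 125 FPKM, the assembly chaperones Psmg1 to Psmg4 4.36 to 27.2 FPKM, and Psmc3ip 135 FPKM.

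**Figure D1:**
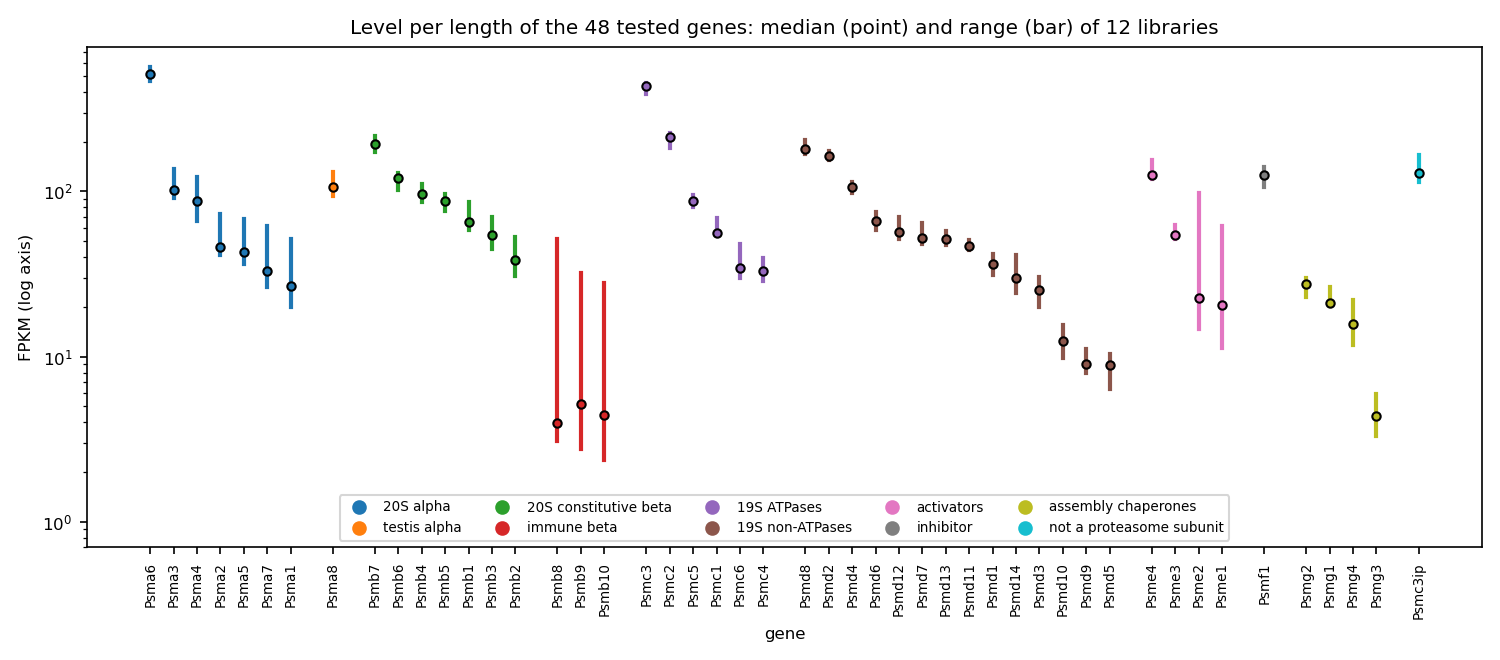
Level per length (FPKM, log axis) of the 48 tested genes, grouped by class on the x axis. Points are medians and bars run from the lowest to the highest of the 12 libraries; Psma6 and Psmc3 stand highest, and the bars of Psmb8, Psmb9, Psmb10, Psme1 and Psme2 are the longest.

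Psmb11, the beta subunit of the thymus cortex, was at 0.02 to 0.08 FPKM, from 1 to 5 reads per library. The summed thymus epithelium markers, Psmb11 among them, were at or under 1.40 CPM in every library. Psme2b, a near copy of Psme2, was at 0.00 to 1.67 FPKM, and its highest values were 1.67 FPKM in knockdown replicate 1, from 24.01 estimated reads, and 1.32 FPKM in 3NC replicate 2. No read was assigned to it in 3NC replicate 1 or 5NC replicate 1, where a count of 0 allows up to 3 reads. Both Psme2 and Psme2b carry fractional read counts, so how reads were divided between the copies is uncertain.

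Each constitutive catalytic gene stood above its immune counterpart in 12 of 12 libraries. Psmb5 was 1.72 to 29.8 times Psmb8 (median 21.3), Psmb6 was 3.73 to 43.4 times Psmb9 (median 22.1) and Psmb7 was 7.41 to 82.6 times Psmb10 (median 41.7). The testis form showed the opposite order to the immune forms, since Psma8 stood above the alpha subunit it replaces. Psma7 was 0.224 to 0.586 times Psma8 (median 0.321), lower in 12 of 12 libraries. For each of these 4 ratios the exact two-sided sign-flip permutation test over the 12 libraries gave p = 0.000488, the smallest that 12 libraries allow, and 0.000488 after adjustment over the 4. Without 3NC replicate 2 and knockdown replicate 1, the mean log2 ratio of Psmb5 to Psmb8 was 4.23 in place of 3.66, and that of Psma7 to Psma8 was -1.75 in place of -1.61.

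**Figure D2:**
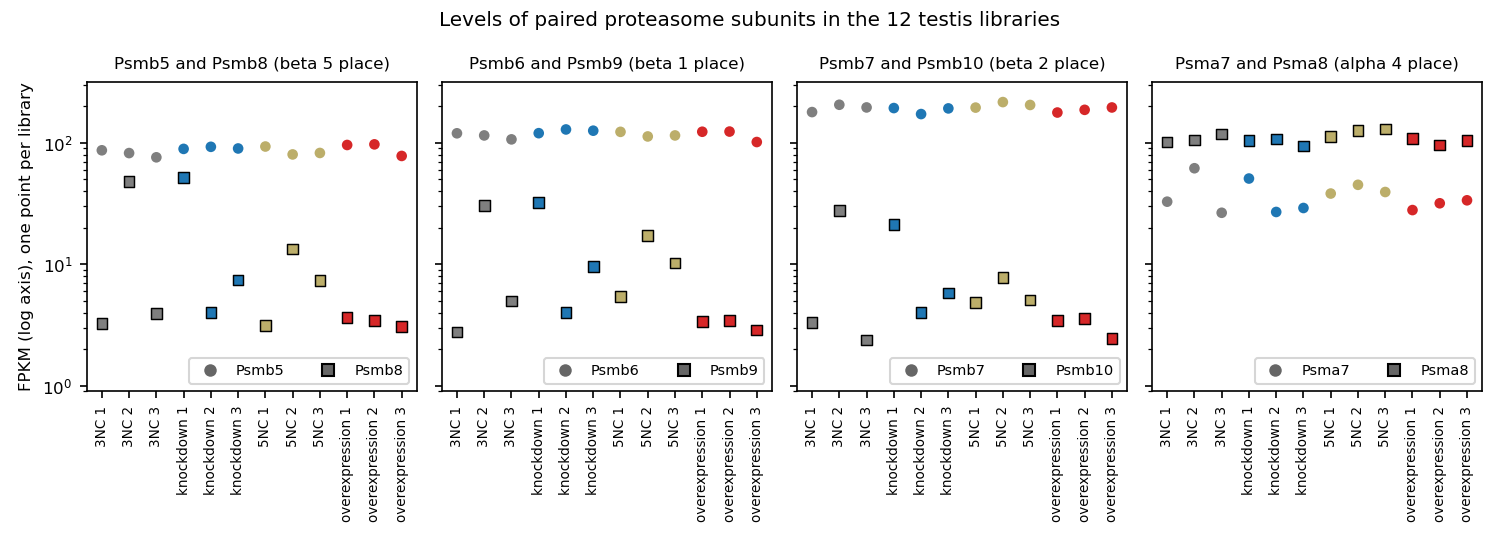
FPKM (log axis) of each catalytic gene with its immune counterpart, and of Psma7 with Psma8, 1 point per library and coloured by group (circles: constitutive gene; squares: immune or testis gene). The constitutive catalytic genes and Psma8 lie in narrow bands, and the immune genes peak in 3NC replicate 2 and knockdown replicate 1.

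The constitutive catalytic genes were steady. Psmb5 was at 86.8, 82.3 and 76.0 FPKM in 3NC replicates 1 to 3, 89.1, 92.7 and 89.8 FPKM in the knockdown group, 93.2, 80.2 and 82.5 FPKM in 5NC, and 96.0, 97.1 and 78.0 FPKM in the overexpression group. These groups overlapped except that each knockdown library was above each 3NC library. Psmb6 was at 120, 115 and 107 FPKM in 3NC, 120, 129 and 126 FPKM in knockdown, 123, 113 and 115 FPKM in 5NC, and 123, 124 and 102 FPKM in overexpression. Knockdown again stood above 3NC in FPKM, by a margin of under 1 FPKM. Psmb7 was at 179, 206 and 196 FPKM in 3NC, 193, 173 and 192 FPKM in knockdown, 195, 217 and 205 FPKM in 5NC, and 178, 187 and 196 FPKM in overexpression. Its groups of each vector overlapped in FPKM. In TMM-scaled CPM, the scale of the fold changes below, knockdown and 3NC overlapped for Psmb5 and Psmb6, and the highest-to-lowest ratio over the 12 libraries was 1.29, 1.31 and 1.18 for Psmb5, Psmb6 and Psmb7.

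The immune genes were low in most libraries and high in a few, and the same libraries were high for all 3. Psmb8 was at 3.25, 47.8 and 3.92 FPKM in 3NC, 51.7, 3.99 and 7.41 FPKM in knockdown, 3.13, 13.3 and 7.36 FPKM in 5NC, and 3.66, 3.44 and 3.07 FPKM in overexpression. The 2 highest values came from the libraries with the most Ptprc. Psmb9 was at 2.76, 30.3 and 4.96 FPKM in 3NC, 32.2, 4.01 and 9.62 FPKM in knockdown, 5.45, 17.1 and 10.2 FPKM in 5NC, and 3.38, 3.42 and 2.87 FPKM in overexpression. Here all 3 overexpression libraries were below all 3 of 5NC. Psmb10 was at 3.32, 27.8 and 2.37 FPKM in 3NC, 21.2, 4.02 and 5.78 FPKM in knockdown, 4.86, 7.75 and 5.07 FPKM in 5NC, and 3.45, 3.59 and 2.43 FPKM in overexpression. Overexpression was again below 5NC throughout. Over the 12 libraries the read counts were 42 to 869 for Psmb8, 28 to 372 for Psmb9 and 35 to 478 for Psmb10. In these bulk samples, fewer cells of a type and less RNA per cell cannot be told apart.

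As a share of the summed FPKM of a pair, Psmb8 took 36.7% in both 3NC replicate 2 and knockdown replicate 1, 14.3% in 5NC replicate 2 and 3.25% to 8.19% in the other 9 libraries. The group means were 15.1% ± 18.8 in 3NC, 16.2% ± 17.9 in knockdown, 8.56% ± 5.51 in 5NC and 3.63% ± 0.188 in overexpression (SD, n = 3). Without the library of most Ptprc the mean was 4.26% in 3NC and 5.87% in knockdown, over the remaining 2 libraries. Psmb9 took up to 21.1% of its pair with Psmb6 and as little as 2.25%, and Psmb10 took 1.197% to 11.9% of its pair with Psmb7. The group means for Psmb9 were 9.18% ± 10.2 in 3NC, 10.4% ± 9.50 in knockdown, 8.53% ± 4.48 in 5NC and 2.70% ± 0.0429 in overexpression (SD, n = 3). Those for Psmb10 were 4.97% ± 6.0, 5.03% ± 4.23, 2.77% ± 0.596 and 1.67% ± 0.385 in the same order (SD, n = 3). Without the library of most Ptprc the Psmb9 means were 3.35% in 3NC and 5.06% in knockdown, and the Psmb10 means 1.51% and 2.60%, so that overexpression was then not the lowest group for Psmb10. With 3 against 3 libraries an exact permutation test cannot go below 0.1, so these shares are described with no test.

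Ptprc was high only where it is named above, so it accompanied the immune genes in 3NC replicate 2 and knockdown replicate 1 and not in 5NC. In 5NC replicates 1 to 3 Ptprc was at 2.12, 3.31 and 2.65 CPM, while Psmb8 was at 3.13, 13.3 and 7.36 FPKM. The summed level of 14 white blood cell markers was 302 CPM in 3NC replicate 2 and 246 CPM in knockdown replicate 1, and 18.96 to 37.0 CPM in the other 10 libraries, 5NC included. Irf1, a transcription factor of the interferon response, was at 62.3 and 58.9 CPM in 3NC replicate 2 and knockdown replicate 1, 24.1 and 16.3 CPM in 5NC replicates 2 and 3, and 3.17 to 11.4 CPM in the other 8 libraries. Tap1, the peptide transporter beside Psmb9, was at 52.6 and 49.1 CPM, 29.5 and 15.9 CPM, and 2.70 to 15.4 CPM in the same order. Knockdown replicate 3 was close to 5NC replicate 3, with Tap1 at 15.4 CPM against 15.9 CPM, Irf1 at 11.4 CPM against 16.3 CPM and Psmb8 at 7.41 FPKM against 7.36 FPKM, while its summed epididymis markers were at 6.82 CPM against 137 CPM. The summed epididymis markers were 21.8, 314 and 137 CPM in 5NC replicates 1 to 3 and 4.26 to 5.13 CPM in the overexpression group. The part of white blood cells and of epididymis tissue in the levels of the immune subunits was not tested.

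**Figure D3:**
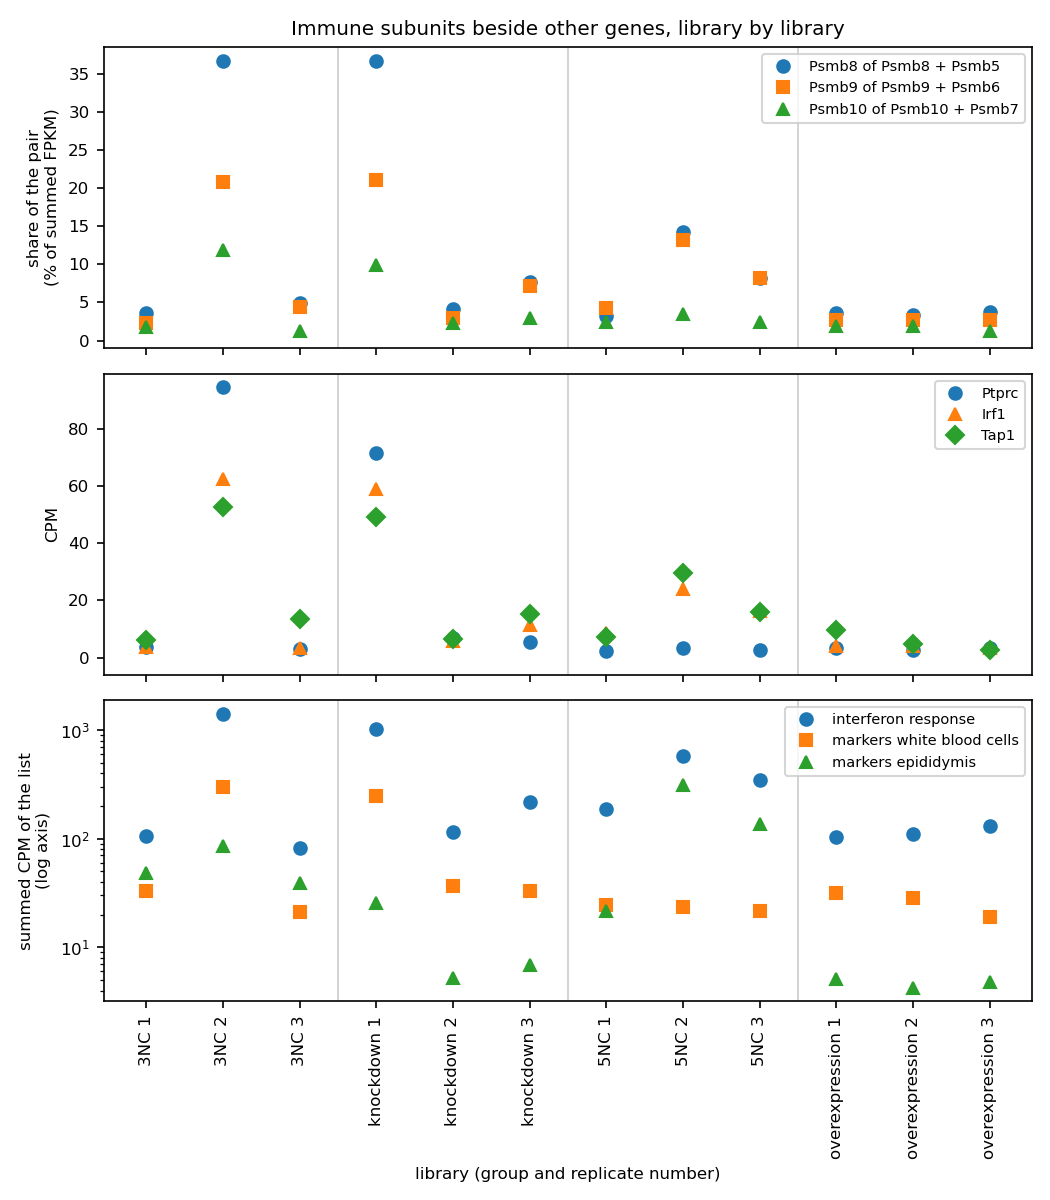
Library by library, the share of each immune gene in its pair (top, % of summed FPKM), the CPM of Ptprc, Irf1 and Tap1 (middle), and the summed CPM of the interferon response, white blood cell and epididymis lists (bottom, log axis). In 3NC replicate 2 and knockdown replicate 1 the immune shares, Ptprc and Irf1 are all high; in 5NC replicates 2 and 3 the Psmb8 and Psmb9 shares, Irf1 and the epididymis list are above those of 5NC replicate 1, and Ptprc is at 3.31 CPM or less.

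Psma8, the testis alpha subunit, was among the steady members. It was at 102, 105 and 119 FPKM in 3NC, 104, 107 and 93.8 FPKM in knockdown, 113, 126 and 130 FPKM in 5NC, and 109, 96.2 and 105 FPKM in overexpression. All 3 libraries of 5NC were above those of overexpression, and 3NC and knockdown overlapped. Psma7, the alpha subunit whose place Psma8 takes, was at 32.8, 61.8 and 26.5 FPKM in 3NC, 50.8, 26.9 and 29.1 FPKM in knockdown, 38.2, 45.1 and 39.3 FPKM in 5NC, and 27.9, 31.8 and 33.6 FPKM in overexpression. Its 2 highest libraries were again 3NC replicate 2 and knockdown replicate 1. Psma8 took 63.1% and 67.2% of the pair in those 2 libraries and 73.6% to 81.7% in the other 10. The group means of this share were 73.5% ± 9.52 in 3NC, 74.5% ± 6.59 in knockdown, 75.1% ± 1.64 in 5NC and 76.8% ± 2.37 in overexpression (SD, n = 3).

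The activators split in the same way. Psme1 was at 22.4, 60.4 and 11.3 FPKM in 3NC, 61.6, 14.8 and 18.7 FPKM in knockdown, 22.0, 28.1 and 23.8 FPKM in 5NC, and 14.9, 19.2 and 16.0 FPKM in overexpression. Psme2, which joins Psme1 in the interferon-induced PA28 cap, was at 22.1, 97.7 and 16.1 FPKM in 3NC, 56.2, 14.8 and 18.9 FPKM in knockdown, 24.7, 39.7 and 37.2 FPKM in 5NC, and 16.9, 20.01 and 23.4 FPKM in overexpression. For both genes every overexpression library was below every 5NC library, and the highest values were in 3NC replicate 2 and knockdown replicate 1. Psme3, the nuclear PA28 form, was at 58.8, 54.6 and 52.2 FPKM in 3NC, 52.0, 51.6 and 57.5 FPKM in knockdown, 60.3, 62.6 and 60.6 FPKM in 5NC, and 52.0, 54.4 and 52.8 FPKM in overexpression. The 3 libraries of 5NC were the highest, and the other groups overlapped. Psme4 was at 123, 135 and 148 FPKM in 3NC, 127, 124 and 118 FPKM in knockdown, 120, 155 and 146 FPKM in 5NC, and 125, 119 and 153 FPKM in overexpression, and its groups overlapped within each vector.

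Over the 12 libraries, 41 of the 48 tested members stayed within a 2-fold range of CPM, as did 66.2% of all tested genes above 0 in every library. The median ratio of the highest to the lowest library was 1.68 for all these genes, with quartiles of 1.42 and 2.34. It was 1.26 for the 6 ATPases and 1.26 for the 14 non-ATPases of the 19S particle, and the steadiest member was Psmd11, a scaffold of the regulatory particle, at 1.06. The 7 constitutive beta genes had a median of 1.31 and the 7 alpha genes one of 1.69, with Psma1 at 2.36 and Psma7 at 2.06. Psma8 was at 1.32. The 3 immune genes ranged over 10.6-fold to 16.5-fold, and 5 of the 48 members exceeded 5-fold, the immune genes with Psme1 (5.09) and Psme2 (5.92). Among all genes 7.58% exceeded it. The ratio also depends on the number of reads, and the members and all genes were not matched for that.

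The libraries in which the immune genes peaked were also the highest of their group for many members, and the alpha genes stood out in that count. The 3 immune genes are highest in each by this choice of libraries. They are included in the counts of 48 below, which are therefore not counts of other members alone. 3NC replicate 2 was the highest of its group for 24 of 48 members, against 36.0% of all tested genes, and for 6 of 7 alpha genes. Knockdown replicate 1 was the highest for 26 of 48 members, against 42.2% of all genes, and for 6 of 7 alpha genes. 5NC replicate 2 was the highest for 25 of 48 members, against 36.2% of all genes, and for all 7 alpha genes. Psma6 was the alpha gene not highest in 3NC replicate 2 and knockdown replicate 1. Psmb5, Psmb6 and Psma8 were highest in none of these 3 libraries. That was not particular to them, since it also held for Psmc2, Psmc3, Psmc5, Psmd2, Psmd4, Psmd8, Psmd9, Psmf1, Psmg2 and Psmc3ip.

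**Figure D4:**
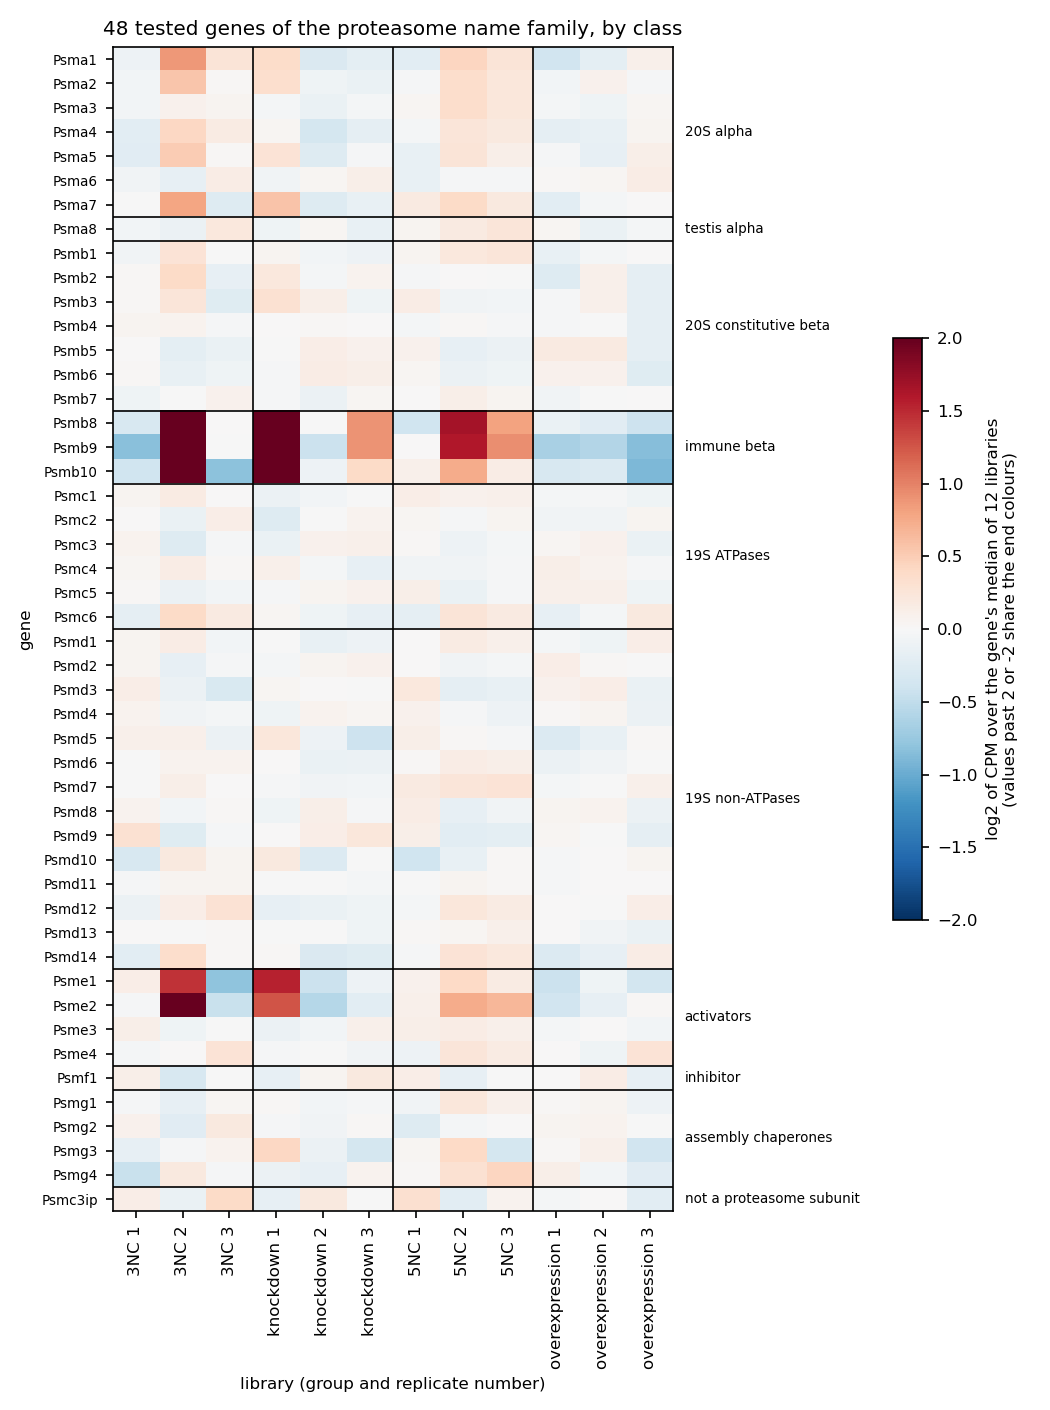
Heat map of the 48 tested genes (rows, by class) in the 12 libraries (columns, by group), as log2 of CPM over the gene's median of the 12 libraries. The rows of Psmb8, Psmb9, Psmb10, Psme1 and Psme2 carry most of the colour, in 3NC replicate 2, knockdown replicate 1 and, less deeply, 5NC replicates 2 and 3.

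The first comparison asked which of these genes differed between the knockdown group and its vector control. No member passed an adjusted p of 0.05 by edgeR's quasi-likelihood test, and neither did any other gene (0.0% of 16388 called). DESeq2 called 0 members as well, and 0.0976% of all genes. At an unadjusted p under 0.05 there was 1 member, Psmd12, and 5.64% of all genes (2.56% higher and 3.08% lower). Psmd12, a lid subunit of the 19S particle, had a mean of 84.2 CPM in knockdown and 99.4 CPM in 3NC, a log2 fold change of -0.24 (SE 0.11, adjusted p = 0.764). The next lower members were the base ATPase Psmc1 at -0.13 (SE 0.07, adjusted p = 0.764) and the alpha subunit Psma4 at -0.30 (SE 0.15, adjusted p = 0.764). The highest ranked of the other direction were the catalytic genes Psmb6 at 0.16 (SE 0.10, adjusted p = 0.764) and Psmb5 at 0.18 (SE 0.11, adjusted p = 0.764), and the ATPase Psmc5 at 0.09 (SE 0.09, adjusted p = 0.793).

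By class, the median log2 fold change of knockdown against 3NC was -0.14 for the alpha genes, -0.01 for the constitutive beta genes and -0.06 for the 19S genes. The alpha median was -0.09 without 3NC replicate 2 and knockdown replicate 1, -0.01 without 3NC replicate 2 alone and -0.31 without knockdown replicate 1 alone. Psma7 went from -0.15 to 0.22 and to -0.45 when each of these was left out alone. For the 48 members it was -0.04, with 32 lower and 16 higher, and for all genes -0.02, with 53.3% lower. Knockdown libraries were all below the 3NC libraries for 2 members, Psmd7 and Psmc1 (6.36% of all genes), and all above for 0 members (4.95%). Psmb8, Psmb9 and Psmb10 had log2 fold changes of 0.25 (SE 1.02), 0.31 (SE 0.81) and -0.05 (SE 0.79), each with an adjusted p of at least 0.927. Both groups hold a library of high Ptprc, and without these 2 libraries the values were 0.67 (SE 0.52), 0.75 (SE 0.52) and 0.76 (SE 0.30), with a smallest adjusted p of 0.904, so that the sign of Psmb10 turned. The direction depended on which library was kept, since Psmb8, Psmb9 and Psmb10 were at 2.48, 1.86 and 1.78 without 3NC replicate 2 alone, and at -1.57, -0.80 and -1.08 without knockdown replicate 1 alone. Psma8 differed by -0.08, with a 95% interval of -0.30 to 0.14 (adjusted p = 0.830).

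The second comparison set the overexpression group against 5NC. Again 0 members passed the adjusted threshold in edgeR and in DESeq2, where edgeR called 0.311% of all genes (0.207% higher and 0.104% lower) and DESeq2 2.0%. At an unadjusted p under 0.05 there were 5 members, all lower, against 4.85% of all genes lower and 7.07% higher at that level (11.9% in all). These were Psmd7, Psma3, Psmc1, Psmb1 and Psmd6. Psmd7, a lid subunit that pairs with the deubiquitinase Psmd14, had a mean of 77.4 CPM in overexpression and 90.01 CPM in 5NC, a log2 fold change of -0.22 (SE 0.07, adjusted p = 0.238). Psma3 followed at -0.24 (SE 0.09, adjusted p = 0.309) and Psmc1 at -0.16 (SE 0.07, adjusted p = 0.391). The beta subunit Psmb1 was at -0.23 (SE 0.10) and the lid subunit Psmd6 at -0.16 (SE 0.07), both with an adjusted p of 0.415. On the higher side the smallest p belonged to Psma6 at 0.13 (SE 0.09, adjusted p = 0.638), the ATPase Psmc4 at 0.11 (SE 0.09, adjusted p = 0.674) and Psmb5 at 0.13 (SE 0.11, adjusted p = 0.700).

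The members leaned lower in this comparison, with 35 of 48 below 0 and a median log2 fold change of -0.10, against 51.8% of all genes and a median of -0.01. The groups did not overlap for 13 members that were lower (10% of all genes) and for 2 that were higher (11.3%), Psmc4 and Psma6. The 13 came from most classes, namely Psma7, Psma8, Psmb1, Psmb7, Psmb9, Psmb10, Psmc1, Psmd6, Psmd7, Psmd13, Psme1, Psme2 and Psme3. Class medians were -0.22 for the alpha genes, -0.06 for the constitutive beta genes, -0.04 for the 19S genes, -0.33 for the activators and -1.16 for the immune genes. Psma8 was at -0.20, with a 95% interval of -0.42 to 0.02 (adjusted p = 0.452). Its means were 163 CPM in overexpression and 187 CPM in 5NC. The summed spermatocyte markers, from cells in which Psma8 appears, were 1545, 2110 and 1873 CPM in 5NC replicates 1 to 3 and 1642, 1641 and 1974 CPM in overexpression, and the groups overlapped. Of these 10 markers, 1 passed, Spo11, the nuclease that starts meiotic recombination, which fell by 0.51 on the log2 scale (SE 0.09, adjusted p = 0.0452). In 5NC against 3NC Spo11 was at 0.46 (SE 0.09, adjusted p = 0.0826). Over the 10 markers, Spo11 included, 6 were lower and 4 higher in overexpression, with a median of -0.11. The summed markers of round spermatids, a later stage, were 986, 912 and 945 CPM in 5NC and 1277, 1206 and 1080 CPM in overexpression, with no overlap. All 8 of these had a higher fitted value, with a median of 0.39, and 0 passed (smallest adjusted p = 0.156). The part of the germ cell stages in the level of Psma8 and of the other members was not tested.

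The largest fold changes of this comparison were those of the immune genes, with the widest errors. Psmb9 was at -1.68 (SE 0.87, adjusted p = 0.479), Psmb8 at -1.16 (SE 1.11, adjusted p = 0.752) and Psmb10 at -0.83 (SE 0.83, adjusted p = 0.770). Psme2 and Psme1 followed at -0.69 (SE 0.60) and -0.51 (SE 0.56). Without 5NC replicate 2, the highest of its group, Psmb8, Psmb9 and Psmb10 were at -0.57 (SE 1.25), -1.23 (SE 0.96) and -0.59 (SE 0.95). The 12 libraries share an estimate of the spread, in which 3NC replicate 2 and knockdown replicate 1 weigh on the immune genes. With both left out, the fold changes were -1.67 (SE 0.43), -1.16 (SE 0.43) and -0.82 (SE 0.25) for Psmb9, Psmb8 and Psmb10, and the smallest adjusted p among the members was 0.0931, for Psmb9. Then 10 of 48 members had an unadjusted p under 0.05, all lower, against 7.18% of all genes lower and 9.28% higher, and still 0 passed. Without them Psme2 was at -0.69 (SE 0.19, adjusted p = 0.107).

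**Figure D5:**
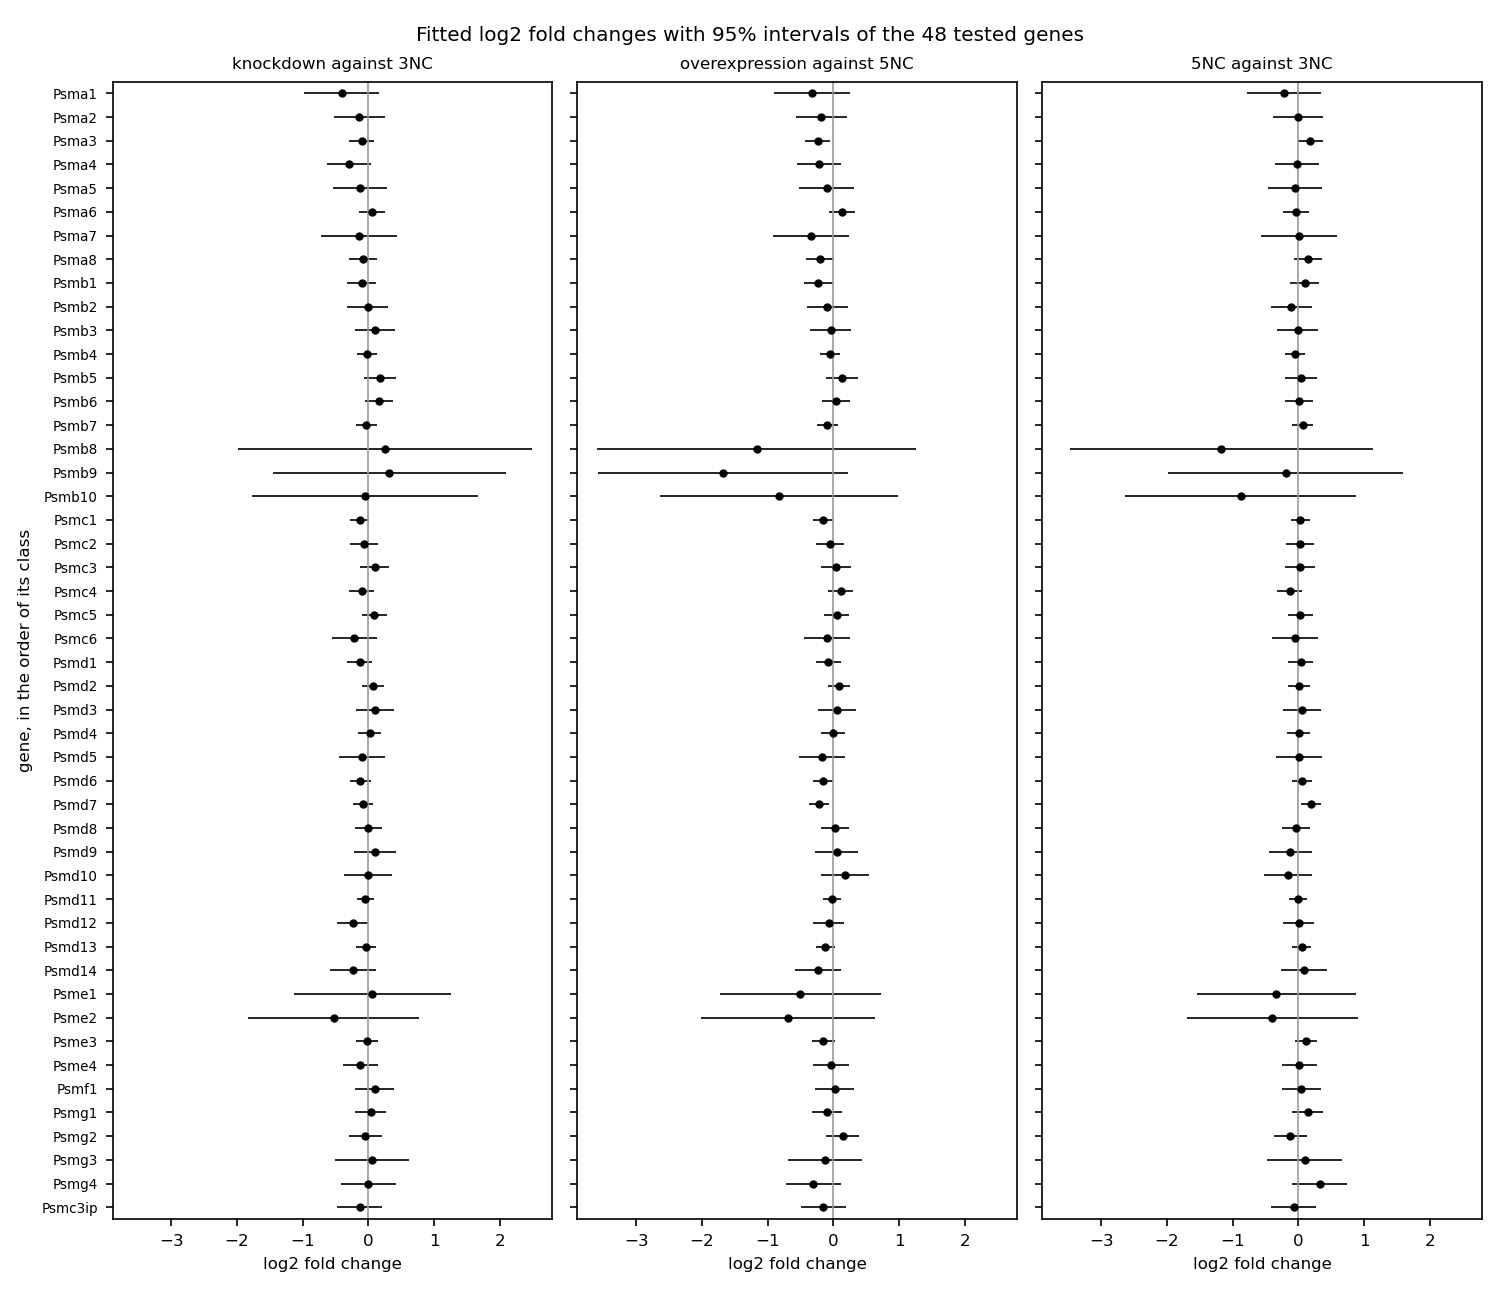
Fitted log2 fold changes of the 48 tested genes (y axis, by class) in 3 comparisons, with 95% intervals (n = 3 libraries per group, 12 in the fit). Most points lie close to 0 with short intervals, and the intervals of Psmb8, Psmb9, Psmb10, Psme1 and Psme2 are the widest and include 0.

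The controls of the 2 vectors were compared with each other to show how far groups without altered lncRNA5251 can differ. This comparison shares 3NC with the first and 5NC with the second. No member passed in edgeR, which called 0.128% of all genes (0.0305% higher and 0.0976% lower), or in DESeq2, which called 1.06%. At an unadjusted p under 0.05 there was 1 member (10.8% of all genes, with 4.21% higher and 6.55% lower), Psmd7, at 90.01 CPM in 5NC and 78.7 CPM in 3NC, a log2 fold change of 0.19 (SE 0.07, adjusted p = 0.383). Psma3 was at 0.18 (SE 0.09, adjusted p = 0.480) and the assembly chaperone Psmg4 at 0.33 (SE 0.19, adjusted p = 0.555). For Psmd7 the values of overexpression (77.4 CPM), 3NC (78.7 CPM) and knockdown (73.9 CPM) lay side by side, with 5NC above them. Groups did not overlap for Psmd13 and Psmd7, higher in 5NC (6.8% of all genes), and for Psmc4, lower in 5NC (6.18%) at -0.13 (SE 0.09, adjusted p = 0.620).

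The median over the members of 5NC against 3NC was 0.01, with 27 higher and 21 lower, against -0.02 and 54.0% lower for all genes. Psma8 was at 0.15, with a 95% interval of -0.07 to 0.36. The immune genes turned when 3NC replicate 2 alone was left out, to 1.06, 1.35 and 0.96 for Psmb8, Psmb9 and Psmb10. In the fit of all libraries Psmb8 was at -1.17 (SE 1.05, adjusted p = 0.725), Psmb10 at -0.88 (SE 0.80, adjusted p = 0.732) and Psmb9 at -0.19 (SE 0.81, adjusted p = 0.954), all lower in 5NC. Without 3NC replicate 2 and knockdown replicate 1 they were at 1.06 (SE 0.48), 0.96 (SE 0.28) and 1.35 (SE 0.48), all higher in 5NC, with adjusted p-values of 0.350, 0.156 and 0.231. Psme1 and Psme2 turned likewise, from -0.33 to 0.48 and from -0.40 to 0.74.

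The difference between the knockdown and overexpression effects was tested in the same fit. It called 0 members in edgeR and in DESeq2, and 0.0244% of all genes in edgeR (0.0061% higher and 0.0183% lower) against 0.256% in DESeq2. No member had an unadjusted p under 0.05, against 4.63% of all genes (1.9% higher and 2.73% lower). The largest difference was that of Psmb9, at 1.99 (SE 1.18), followed in size by Psmb8 at 1.42 (SE 1.503) and Psmb10 at 0.78 (SE 1.14), with adjusted p-values of 0.9999 for the 3. Psmd7 and Psme3 were next in p on the higher side, both at 0.13. The members with the smallest p in the other direction were Psmc4 at -0.22 (SE 0.12), the assembly chaperone Psmg2 at -0.19 (SE 0.16) and Psmd12 at -0.17 (SE 0.15). Without 3NC replicate 2 and knockdown replicate 1, Psmb9 was at 2.42 (SE 0.68), Psmb8 at 1.82 (SE 0.68) and Psmb10 at 1.58 (SE 0.39), each higher with an unadjusted p under 0.05 (2.67% of all genes higher and 4.04% lower) and adjusted p-values of 0.493, 0.694 and 0.385.

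Other genes of the pathway were read from 3 lists. Of 21 proteasome partners (the maturation factor Pomp, ubiquitin receptors, shuttle factors, deubiquitinases and the transcription factors Nfe2l1 and Nfe2l2), 20 were tested and 0 passed in any of the 4 contrasts. Their median log2 fold change was -0.05 in knockdown against 3NC, -0.04 in overexpression against 5NC and 0.00 in 5NC against 3NC, beside -0.02, -0.01 and -0.02 for all genes. Pomp, which assembles the core and is used for the immune form as well, was at 34.6, 49.8 and 34.0 CPM in 3NC and 45.0, 33.8 and 36.1 CPM in knockdown. It was at 42.6, 50.8 and 44.6 CPM in 5NC and 33.5, 39.2 and 36.1 CPM in overexpression. Its 3 highest libraries were those in which Psmb8 was highest. Nfe2l1, which drives proteasome genes when proteasome activity falls, stayed at 61.0 to 84.6 CPM.

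Of the 12 class I peptide loading genes 12 were tested and 0 passed, with medians of -0.05, -0.07 and -0.36 in the same order of contrasts. Their summed level was 2864 and 2683 CPM in 3NC replicate 2 and knockdown replicate 1 and 1438 to 1730 CPM in the other 10 libraries. Tap2, the partner of Tap1, was at 36.2 and 37.2 CPM in those libraries, 17.0 and 11.74 CPM in 5NC replicates 2 and 3, and 3.93 to 9.52 CPM elsewhere. B2m, the light chain of class I, was at 357 and 262 CPM, 68.4 and 48.7 CPM, and 33.4 to 82.4 CPM, so 5NC did not stand out for it. Nlrc5, an activator of class I genes, was at 28.6 CPM in both libraries of high Ptprc and at 4.52 to 10.1 CPM in the other 10. Of the 25 interferon response genes 23 were tested and 0 passed in the fit of all libraries. Their medians were -0.44 in knockdown against 3NC, -1.06 in overexpression against 5NC (18 of 23 lower) and -1.21 in 5NC against 3NC (20 of 23 lower). The last direction rested on 3NC replicate 2, since without it the median was 1.25 and 22 of 23 were higher. The class I list turned likewise, from -0.36 to 0.08, and in knockdown against 3NC the interferon median turned from -0.44 to 2.53. Knockdown replicate 1 was still in that fit, with a summed interferon level of 1030 CPM against 116 and 218 CPM in knockdown replicates 2 and 3. With it left out too, the interferon median of knockdown against 3NC was 0.97. With 3NC replicate 2 and knockdown replicate 1 both left out, 22 interferon genes were tested and 6 passed in overexpression against 5NC, all lower, at -3.72 to -2.09, where 0.968% of all genes passed (0.371% lower). Irf1 was among them, at -2.09 (SE 0.36, adjusted p = 0.0303). In a fit of the 6 libraries of that comparison alone 5 passed, all lower, where 0.675% of all genes passed (0.246% lower). Between the same groups the summed epididymis markers were 21.8 to 314 CPM in 5NC and 4.26 to 5.13 CPM in overexpression. The part of that tissue in these calls was not tested. With both left out, 1 interferon gene passed in 5NC against 3NC, the GTPase gene Iigp1, at 3.88 (SE 0.66, adjusted p = 0.0479). It was named after its value was seen, and 0.274% of all genes passed (0.0487% higher). 3NC replicate 2 was the highest of the 12 libraries for this list, so leaving it out favours higher values in 5NC for these same genes. The summed level of the interferon genes was 1413 CPM in 3NC replicate 2, 1030 CPM in knockdown replicate 1, 578 and 348 CPM in 5NC replicates 2 and 3, and 82.4 to 218 CPM in the other 8 libraries.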

How the data were processed

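Messenger RNA of 12 F1 testis libraries was sequenced. The authors mapped the reads with SOAPaligner and deposited, for mm10, a table of estimated counts, fractional in 17.3% of 20788 rows, and of FPKM. It also holds 18 per-sample columns of other samples, which were not used here, and averages and comparisons made by the authors, which were not used either. All 50 symbols matched RefSeq by gene ID.

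Estimated counts were rounded, filtered with filterByExpr (16388 genes kept), scaled by TMM and fitted in edgeR 4.0.16 (R 4.3.3), all 12 libraries in 1 quasi-likelihood fit with a coefficient per group. The biological coefficient of variation was 22.9%. Adjusted p-values are those of Benjamini and Hochberg over all genes, called at 0.05. CPM is TMM-scaled. Levels were compared between genes in FPKM, with an exact sign-flip permutation test. Alternatives were DESeq2 1.42.0, limma 3.58.1 on log2 FPKM, other scalings, no filter, fewer libraries, a replicate block and the study's thresholds. Low-level genes rest on few reads, and intervals cover the spread between libraries. The scripts were tested on simulated data. The most alike libraries of a group differed by more than sampling noise (chi-square per degree of freedom of 3.44). Exon overlaps come from GENCODE (GRCm38).

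The genes, lists and alternatives were chosen with earlier results of these data known, and the term for the 3 libraries of fewest reads and the lists without the libraries of high Ptprc were added after seeing the data. Named in every library were the catalytic, immune and testis subunits, Psma7 and the activators, and per contrast the 3 higher and 3 lower members with the smallest p. Psmb1, Psmd6, Psmd11, Psmd13 and the members that name the ends of a range lie outside this rule. So do those named only as highest in none of 3 libraries. All of these were named after their values were seen.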

Additional observations from a re-analysis of the deposited data

How the results depend on the processing

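No member passed in any contrast under any of the alternatives, 91 results in all, and the smallest adjusted p of a member over them was 0.451 in knockdown against 3NC, 0.0793 in overexpression against 5NC, 0.153 between the vector controls and 0.385 for the difference of effects. With the replicate number as a block, 0 members passed in each contrast, and 21, 5 and 2 genes of any kind passed for overexpression, between the vector controls and for the difference, in place of 51, 21 and 4. Same-numbered libraries did not deviate together, so the numbers were not taken as pairs. For all genes, DESeq2 passed 16, 328, 173 and 42 in the 4 contrasts, and leaving out a library in turn gave 0 to 12 in knockdown against 3NC (12 without 3NC replicate 3), 9 to 87 in overexpression against 5NC (9 without 5NC replicate 2 or 3), 3 to 35 between the vector controls and 2 to 10 for the difference. Of 88 fold changes of named genes, 18 changed sign when 3NC replicate 2 was dropped, 14 when 3NC replicate 3 was, and 12 when 3NC replicate 2 and knockdown replicate 1 were left out together, all at values that had not passed. The 4 level ratios kept their direction and passed in all 56 recomputations. Where estimated counts were not divided by length, Psmb8 took 5.27% of its pair in overexpression, Psmb9 took 2.29% in overexpression, and Psmb10 took 3.92% in 5NC and 2.40% in overexpression. On that scale Psma8 took 83.7% in 3NC, 84.5% in knockdown, 85.0% in 5NC and 86.2% in overexpression. The immune genes rest on as few as 28 reads in a library.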
